A study of Mus with 9 samples.

Results

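The genes described here are the 35 members of glycolysis, gluconeogenesis and fructose metabolism that were picked by gene symbol from the 54532 genes of the deposited kidney RNA-seq table. Each symbol gave 1 gene except Aldoa, which stands on 2 rows, so the 35 symbols cover 36 rows. The second Aldoa row held between 0 and 6 counts per library and was not tested. All 35 members passed edgeR's filter on low counts, as did 15902 genes in all. Each of the 9 libraries came from the kidney of another male C57BL/6 mouse, and the groups, called 18 mo, 21 mo and 21 mo/O304, hold 3 libraries apiece. Every mouse underwent unilateral nephrectomy at 18 months of age, so the operation is shared by all groups. The 18 mo mice were killed 1 week later, the 21 mo mice after 12 weeks of intraperitoneal saline, and the 21 mo/O304 mice after 12 weeks of O304 at 10 mg/kg/day. O304 is a small molecule that activates AMPK, the kinase that senses low cellular energy. Age, time after surgery and daily injection all separate the 18 mo group from the other groups and cannot be told apart, whereas 21 mo and 21 mo/O304 mice differed in the drug.

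Glycolysis splits glucose into pyruvate, and gluconeogenesis runs the same path backwards with its own enzymes at the irreversible steps, phosphoenolpyruvate carboxykinase, fructose-1,6-bisphosphatase and glucose-6-phosphatase. In the kidney the division is anatomical. The proximal tubule makes glucose from lactate, glutamine and glycerol, takes up fructose and burns mainly fatty acids, while the thick ascending limb, the distal nephron and the medulla use glucose by glycolysis. AMPK is known to favour glycolysis through the PFK-2/FBPase-2 enzymes and, in liver, to restrain transcription of gluconeogenic genes.

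Counts on genes summed to between 15636378 and 18396725 per library. One count was worth 0.0458 to 0.0669 CPM (counts scaled to library size, with TMM normalization), the unit used below for a gene across libraries. Gene positions are those of the deposited table, on the mouse build GRCm38. Levels of different genes are compared only in FPKM, which divides by gene length. The 21 mo group was uneven, with a biological coefficient of variation of 44.0%, where the 18 mo mice had 18.0% and the treated mice 20.6%. Its mice stood apart from each other in the levels of cell type markers. All 12 proximal tubule markers were detected in every library, and their sum was 22867, 10654 and 2451 CPM in 21 mo mice 1, 2 and 3, against 22771 to 30914 CPM in 18 mo mice. Results are therefore given with all mice and, where a call turned on it, without 21 mo mouse 1, the 21 mo library whose proximal and injured tubule marker sums lay closest to those of the 18 mo group. Leaving out the library most like the comparison groups in these markers widens the differences and narrows the 21 mo spread by construction. The calls made without it therefore show how far the result turns on 1 mouse and are not further evidence of a difference. Leaving out any other single library gave 0 calls among the members. Mouse numbers are the replicate numbers of the labels and carry no order. In whole-kidney RNA, fewer cells of a type and less RNA per cell cannot be told apart.

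The members covered a wide range of levels in the 18 mo kidney, from Sord and Ldhb at the top to Hk2 at the bottom. By mean FPKM in the 18 mo group, 13 members were at 100 or more, 9 between 10 and 100, 8 between 1 and 10, and 5 under 1. The highest were Sord, which oxidizes sorbitol to fructose, at 788 ± 91.9 FPKM (SD, n = 3), and Ldhb, the lactate dehydrogenase subunit of oxidative tissues, at 786 ± 58.8 FPKM (SD, n = 3). Those 2 levels differed by less than their SD. Fbp1, the main fructose-1,6-bisphosphatase of liver and kidney, followed at 609 ± 61.4 FPKM (SD, n = 3). Khk, which phosphorylates fructose, was at 413 ± 30.1 FPKM (SD, n = 3) and Pck1, the cytosolic phosphoenolpyruvate carboxykinase, at 397 ± 121 FPKM (SD, n = 3), again within the SD of each other. At the other end, Hk2 was at 0.136 ± 0.0226 FPKM (SD, n = 3), Hk3 at 0.204 ± 0.0627 FPKM (SD, n = 3) and Eno2, the neuronal enolase, at 0.210 ± 0.121 FPKM (SD, n = 3). The map of all members by library shows the rows with the strongest colour in 21 mo mouse 3.

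**Figure D1:**
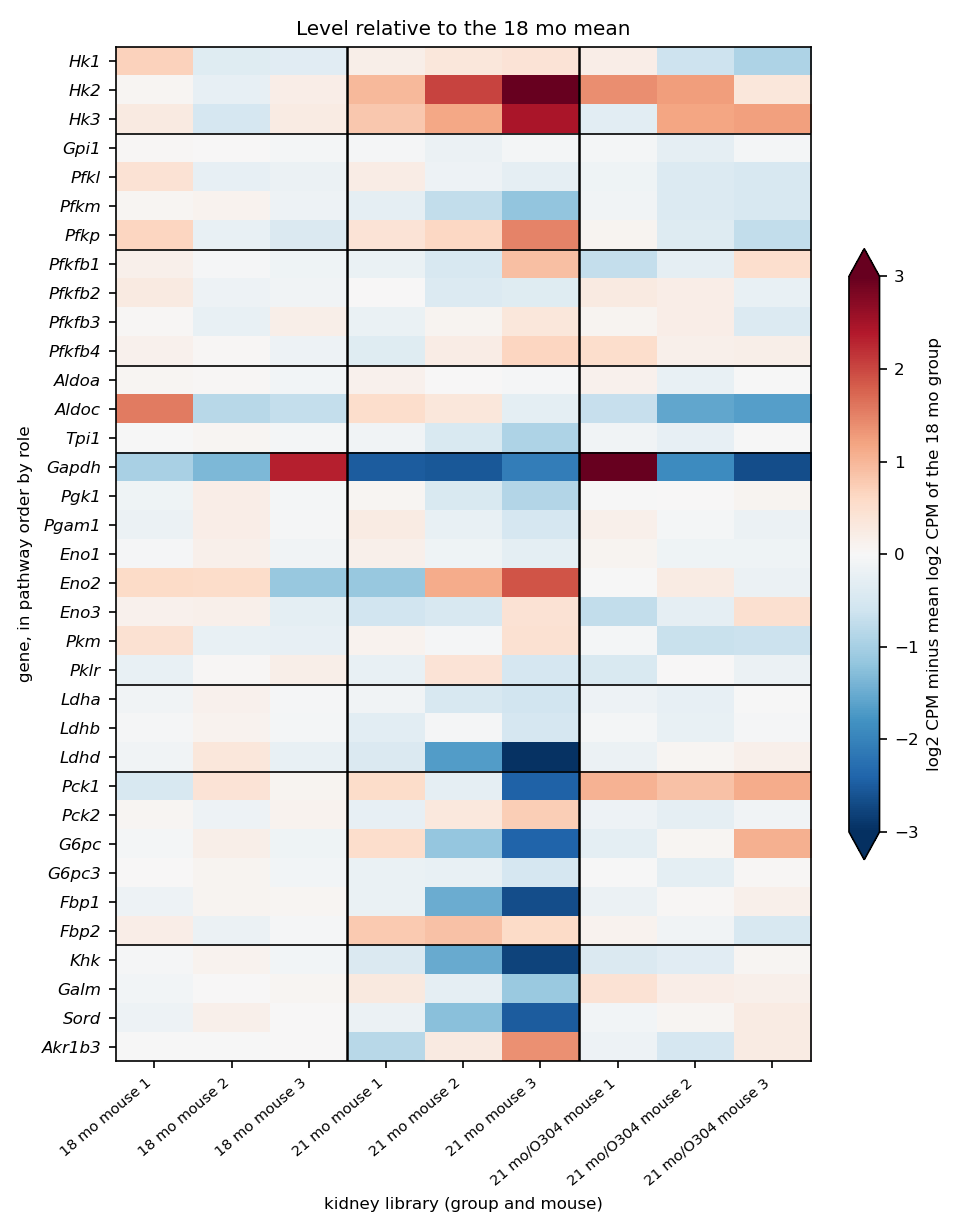
Heat map of the 35 members (rows, in pathway order by role) in the 9 libraries (columns), where colour is log2 CPM minus the mean log2 CPM of the 18 mo group and saturates at 3 either way. Fbp1, Khk, Sord, Ldhd, Pck1 and G6pc are darkest blue in 21 mo mouse 3, where Fbp1 stood at 15.9% of its 18 mo mean and Khk at 14.5%, while Hk2 there stood at 2007%.

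The comparison of 21 mo with 18 mo mice asks what differed in kidneys that had aged and recovered from surgery for longer. Hk2, Hk3 and Fbp2 were higher in every 21 mo mouse than in every 18 mo mouse, and Pfkm, Tpi1, Gapdh, Ldhd, G6pc3, Fbp1, Khk and Sord were lower. Thus the groups did not overlap for 3 higher members (13.5% of all genes) and 8 lower ones (15.3%). In all, 13 members were higher and 22 lower, and none passed an adjusted p of 0.05 in edgeR's quasi-likelihood test, where 0.0189% of all genes did. At an unadjusted p under 0.05 there were 4 higher members, Hk2, Hk3, Pfkp and Fbp2, against 14% of all genes, and 4 lower, Pfkm, Ldhd, G6pc3 and Khk, against 12%. The median log2 fold change was −0.14 over the members and 0.03 over all genes tested. DESeq2 called 5 members, Hk2, Hk3, Ldhd, Fbp2 and Khk (7.29% of the 28225 genes with any count). Given the 6 libraries compared alone, a setting added after the data were seen, it called 2 (3.81% of 26983). These bases include genes that edgeR's filter to 15902 removed, whereas every member passed it. DESeq2's shares are therefore not on a like base with the members. Of the limma fits, voom with sample quality weights called 16 (52.9%), with 21 mo mouse 2 weighted 9.11 and mice 1 and 3 at 0.223 and 0.132, and limma-trend on FPKM called 0 (0.0209%). Without 21 mo mouse 1, edgeR called 12 members, where it called 25.4% of all genes. Of these, Hk2, Hk3, Pck2 and Fbp2 were higher, and Pfkm, Tpi1, Pgk1, Ldhd, G6pc, Fbp1, Khk and Sord were lower.

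The comparison of 21 mo/O304 with 21 mo mice asks what differed with the drug. Ldhd, Pck1, Fbp1 and Sord were higher in every treated mouse than in every 21 mo mouse (4 members, 10.8% of genes), and Pfkp, Aldoc, Pkm and Fbp2 were lower (4 members, 10.5%). In all, 19 members were higher and 16 lower, and edgeR's test called 0 (0% of all genes). At an unadjusted p under 0.05 there were 2 higher members, Gapdh, whose value fell to 0.12 without 21 mo/O304 mouse 1, and Ldhd (8.27% of genes), and 6 lower, Hk2, Pfkp, Aldoc, Pkm, Pck2 and Fbp2 (12.4%). The median was 0.05 over the members and −0.02 over all genes, and the members' median was −0.05 without 21 mo/O304 mouse 1. DESeq2 called 2 members (3.36% of 28225 genes), Pfkp and Fbp2, and on the 6 libraries alone 3 (1.74% of 26882). Both shares are again over all genes with any count. Of the other tools, limma voom with sample quality weights called 19 (41.1%) and limma-trend 0 (0%). Without 21 mo mouse 1, edgeR called 14 members (23.1% of genes). Pfkm, Pgk1, Ldhd, Pck1, G6pc, Fbp1, Khk, Galm and Sord were higher with O304, and Hk2, Pfkp, Pck2, Fbp2 and Akr1b3 lower. Akr1b3 differed by −0.64 (SE 0.45, adjusted p = 0.41, edgeR) with all mice, −1.04 (adjusted p = 0.0413, edgeR) without mouse 1 and 0.09, the opposite sign, without mouse 3. The 21 mo mice enter this comparison and the one with the 18 mo mice, so opposite signs in the 2 comparisons are not independent of each other.

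**Figure D2:**
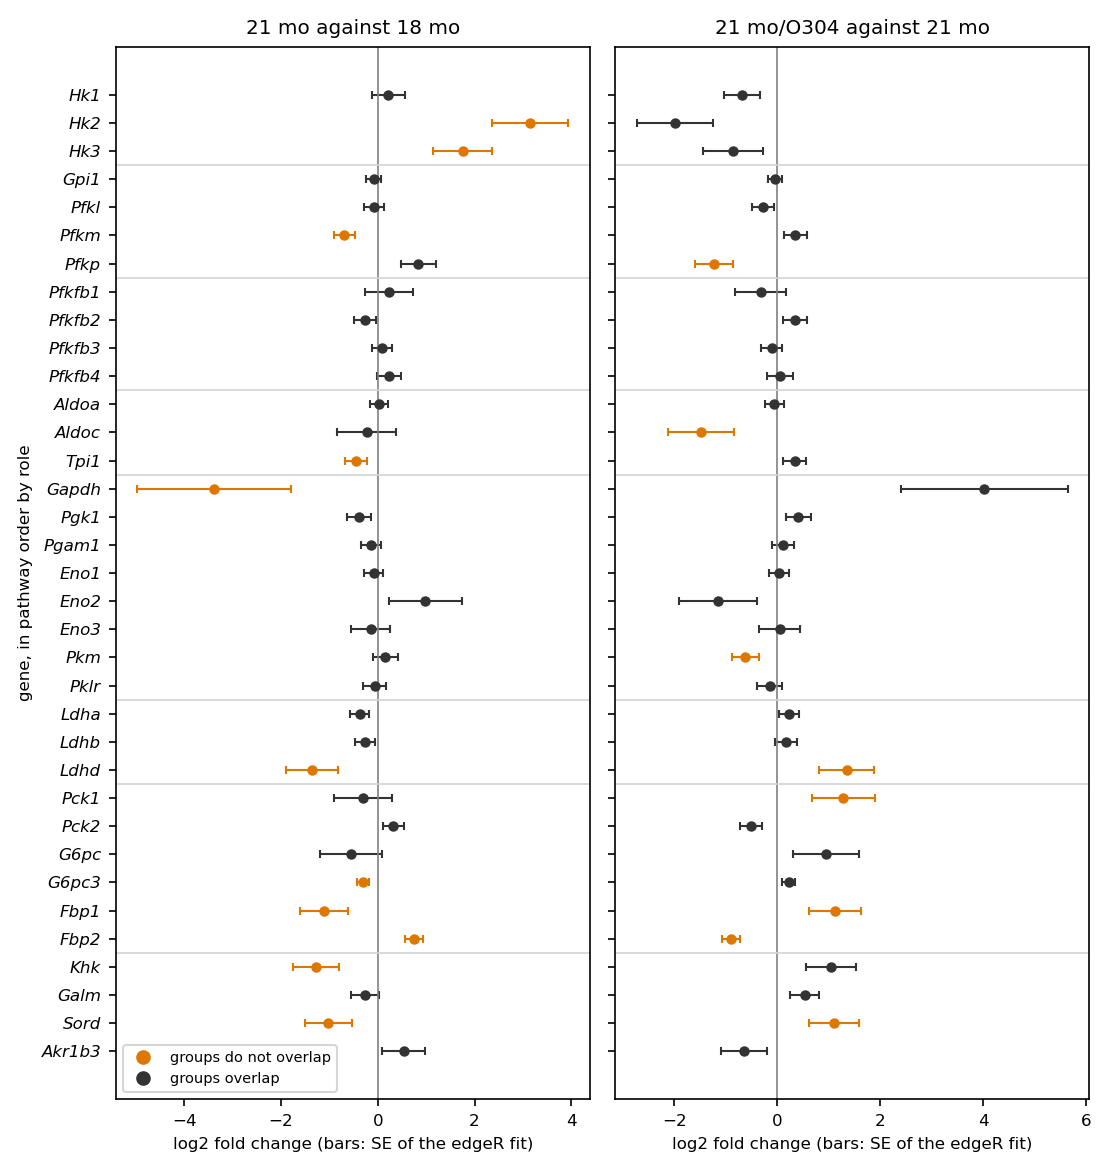
Log2 fold change of each of the 35 members (rows, in pathway order) with a standard error worked back from the edgeR test, for 21 mo against 18 mo (left) and 21 mo/O304 against 21 mo (right). Orange points are genes whose 3 mice per group did not overlap, 11 on the left and 8 on the right, and no point passed an adjusted p of 0.05. The panels share the 21 mo mice, so their mirrored look is partly built in, and Gapdh has the widest bars (SE 1.59 and 1.62).

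Hexokinases add the first phosphate to glucose. Hk1, the housekeeping form, made up most of the hexokinase transcript. Its level was 175, 84.97 and 85.6 CPM in 18 mo mice 1 to 3, 122, 137 and 143 CPM in 21 mo mice and 125, 70.0 and 57.3 CPM in 21 mo/O304 mice, with overlap throughout. On the log2 scale, used for all differences here, Hk1 differed by 0.22 (SE 0.35, adjusted p = 0.71, edgeR) for 21 mo against 18 mo and by −0.68 (SE 0.35, adjusted p = 0.289, edgeR) with O304, where a negative value means lower in the group named first. Hk2, the insulin- and hypoxia-responsive form that is scarce in the healthy kidney, held 0.867, 0.678 and 0.962 CPM in 18 mo mice, 1.74, 3.75 and 16.8 CPM in 21 mo mice and 2.38, 2.15 and 1.08 CPM in 21 mo/O304 mice. Every 21 mo mouse was above every 18 mo mouse, a difference of 3.15 (SE 0.79, adjusted p = 0.0775, edgeR), and 21 mo mouse 3 held more than any other library. The libraries held between 11 and 366 counts of Hk2, which lies on chromosome 6 from 82725025 to 82774454. Without 21 mo mouse 1 the difference was 3.62 (adjusted p = 0.00749, edgeR), and without mouse 3 it was 1.69 (adjusted p = 0.1, edgeR). With O304, Hk2 differed by −1.99 (SE 0.74, adjusted p = 0.2, edgeR), though 21 mo mouse 1 lay within the 21 mo/O304 range, and −2.46 (adjusted p = 0.0226, edgeR) without that mouse. Without 21 mo mouse 3 it shrank to −0.54 (adjusted p = 0.616, edgeR). Hk3, the hexokinase of myeloid cells, was at 0.929, 0.493 and 0.905 CPM, 1.40, 1.82 and 4.63 CPM and 0.582, 1.85 and 1.91 CPM in the same order of groups. All 21 mo mice exceeded all 18 mo mice, with a log2 difference of 1.75 (SE 0.61, adjusted p = 0.121, edgeR), or 1.03 without 21 mo mouse 3. The 7 macrophage markers, none of them at 0, summed to 299 to 506 CPM in 18 mo mice, 751 to 3575 CPM in 21 mo mice and 551 to 592 CPM in 21 mo/O304 mice, and their part in the Hk3 difference was not tested. Hk3 also shares its locus with Unc5a, which had 159% of its counts, so reads of the 2 genes could have been exchanged.

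The next step joins phosphoglucose isomerase with phosphofructokinase-1, the committed enzyme of glycolysis, whose subunits are encoded by Pfkl, Pfkm and Pfkp. Gpi1 was even across the study, at 432, 423 and 402 CPM in 18 mo mice, 410.3, 372 and 402 CPM in 21 mo mice and 401, 346 and 402 CPM in 21 mo/O304 mice, and the 21 mo mice differed from the 18 mo mice by −0.09 (SE 0.15, adjusted p = 0.729, edgeR). Among the phosphofructokinase subunits, the 21 mo mean was lower than the 18 mo mean for Pfkm and higher for Pfkp. Pfkm, the muscle type, on chromosome 15 from 98092589 to 98132451, was at 54.9, 56.8 and 47.1 CPM, 43.9, 31.4 and 23.1 CPM and 48.8, 39.5 and 37.6 CPM in 18 mo, 21 mo and 21 mo/O304 mice. Every 21 mo mouse lay below every 18 mo mouse, a difference of −0.69 (SE 0.22, adjusted p = 0.103, edgeR), and −0.94 (adjusted p = 0.0109, edgeR) without 21 mo mouse 1. With O304 the difference from 21 mo was 0.35 (SE 0.22, adjusted p = 0.356, edgeR) with overlap, and 0.61 (adjusted p = 0.0427, edgeR) without 21 mo mouse 1. Pfkp, the platelet type, on chromosome 13 from 6579768 to 6648777, was measured at 68.9, 38.0 and 32.8 CPM in 18 mo mice, 58.6, 68.2 and 123 CPM in 21 mo mice and 46.5, 34.0 and 26.3 CPM in 21 mo/O304 mice. 21 mo mouse 3 was the highest of the 9, and 18 mo mouse 1 exceeded 21 mo mice 1 and 2, so the higher mean of the 21 mo group, by 0.84 (SE 0.36, adjusted p = 0.185, edgeR), came with overlap. All 21 mo/O304 mice lay below all 21 mo mice, with a log2 difference of −1.23 (SE 0.37, adjusted p = 0.176, edgeR), and Pfkp was among the members that DESeq2 called here. Pfkl, the liver type, was at 94.9, 59.8 and 62.4 CPM in 18 mo mice, 83.1, 63.2 and 59.0 CPM in 21 mo mice and 65.0, 53.3 and 50.5 CPM in 21 mo/O304 mice. It differed by −0.08 (SE 0.21, adjusted p = 0.829, edgeR) and, with O304, by −0.28 (SE 0.21, adjusted p = 0.44, edgeR). Senp1 overlaps Pfkm with 47.5% of its counts and Pitrm1 overlaps Pfkp with 89.3%.

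The PFK-2/FBPase-2 enzymes make and remove fructose-2,6-bisphosphate, the activator of phosphofructokinase-1, and some of them are phosphorylated by AMPK. The groups overlapped for all 4 of their transcripts in both comparisons with 21 mo mice. Pfkfb4, the most abundant by length over the 9 libraries, was at 12.4, 11.7 and 10.2 CPM in 18 mo mice, 8.90, 13.4 and 17.9 CPM in 21 mo mice and 16.3, 12.6 and 12.9 CPM in 21 mo/O304 mice. The 21 mo mice spanned both other groups, and the log2 fold changes were 0.23 (SE 0.25, adjusted p = 0.569, edgeR) and 0.06 (SE 0.25, adjusted p = 0.909, edgeR), the second of which changed sign without 21 mo mouse 1. Pfkfb3, the inducible form, ranged from 13.1 to 22.1 CPM, Pfkfb2, the heart form, from 5.46 to 8.78 CPM and Pfkfb1, the liver form, from 0.756 to 2.57 CPM over all libraries. The log2 fold changes of these 4 genes lay between −0.26 and 0.23 for 21 mo against 18 mo and between −0.32 and 0.34 with O304. Apex2 had 811% of the counts of Pfkfb1 and Yod1 had 116% of those of Pfkfb2, so both are uncertain.

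Aldolase cleaves fructose-1,6-bisphosphate and triose phosphate isomerase interconverts the products. Aldoa, the ubiquitous aldolase, was at 944, 930.1 and 861 CPM in 18 mo mice, 988, 915 and 887 CPM in 21 mo mice and 997, 782 and 898 CPM in 21 mo/O304 mice, and differed by 0.03 (SE 0.18, adjusted p = 0.931, edgeR) and −0.06 (SE 0.18, adjusted p = 0.862, edgeR). Aldoc, the aldolase of brain, on chromosome 11 from 78322968 to 78327781, was measured at 38.2, 7.21 and 7.81 CPM, 18.6, 16.3 and 10.5 CPM and 7.91, 4.29 and 4.01 CPM. One mouse, 18 mo mouse 1, was far above the other 8. All 21 mo/O304 mice lay below all 21 mo mice, with a log2 difference of −1.48 (SE 0.64, adjusted p = 0.234, edgeR), and against 18 mo the difference was −1.71 (SE 0.64, adjusted p = 0.459, edgeR). Without 18 mo mouse 1 the latter was −0.47, and 21 mo against 18 mo went from −0.23 to 1.00. The summed level of 6 markers of thick ascending limb and distal tubule was also highest in 18 mo mouse 1, at 7838, 3749 and 3947 CPM in 18 mo mice 1 to 3, 6866, 6301 and 3196 CPM in 21 mo mice and 4910, 3450 and 2930 CPM in 21 mo/O304 mice. In 18 mo mouse 1, Umod (4767 CPM) and Slc12a1 (2239 CPM) made up most of that sum, and with Cldn16 they were highest of the 18 mo group. The other markers went the other way there. Slc12a3 (624, 880 and 786 CPM in 18 mo mice 1 to 3), Pvalb (16.4, 33.8 and 23.8 CPM) and Calb1 (178, 420 and 258 CPM) were lowest of the 18 mo group in mouse 1. Of these markers Pvalb was at 0 in 21 mo mouse 3, and the part of these segments in the Aldoc values was not tested. Tpi1, the isomerase, was at 793, 834 and 764 CPM in 18 mo mice, 746, 577 and 421 CPM in 21 mo mice and 746, 670.4 and 787 CPM in 21 mo/O304 mice. Its 21 mo mice all lay below the 18 mo mice, with a log2 difference of −0.46 (SE 0.23, adjusted p = 0.236, edgeR), and −0.66 (adjusted p = 0.038, edgeR) without 21 mo mouse 1.

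Lower glycolysis turns triose phosphate into pyruvate. Pgk1, the kinase that yields the first ATP, held 478, 603 and 499.8 CPM in 18 mo mice, 546, 379 and 283 CPM in 21 mo mice and 521, 532 and 556 CPM in 21 mo/O304 mice. Mice 2 and 3 of the 21 mo group were the lowest of the 9 and mouse 1 lay within the 18 mo range, and the difference was −0.39 (SE 0.24, adjusted p = 0.329, edgeR), or −0.65 (adjusted p = 0.0371, edgeR) without mouse 1. Pkm, the pyruvate kinase of most tissues, on chromosome 9 from 59656368 to 59679375, was at 394, 246 and 241 CPM, 309, 278 and 395 CPM and 276, 179 and 183 CPM in the 3 groups. All 21 mo/O304 mice were below all 21 mo mice, with a log2 difference of −0.62 (SE 0.26, adjusted p = 0.231, edgeR), while 18 mo mouse 1 reached the level of 21 mo mouse 3. Pgam1, phosphoglycerate mutase, and Eno1, the main enolase, differed by −0.14 (SE 0.21, adjusted p = 0.687, edgeR) and −0.09 (SE 0.19, adjusted p = 0.805, edgeR) for 21 mo against 18 mo and by 0.11 and 0.03 with O304. Pklr, the pyruvate kinase of liver and red cells, differed by −0.06 (SE 0.24, adjusted p = 0.884, edgeR). Eno2 and Eno3, the neuronal and muscle enolases, stayed under 6 CPM in every library and gave 0.98 (SE 0.75, adjusted p = 0.426, edgeR) and −0.14 (SE 0.40, adjusted p = 0.843, edgeR).

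Gapdh, often used as a reference gene, had uneven counts that make its values uncertain. Its counts were 133, 103 and 1470 in 18 mo mice, 42, 48 and 83 in 21 mo mice and 2508, 73 and 39 in 21 mo/O304 mice. In FPKM that is 0.583 to 34.2, while Tpi1 and Pgk1, the enzymes on either side of it, were at 121 FPKM or more in every library. Gapdh, on chromosome 6 from 125161715 to 125166467, overlaps Iffo1, which had 52.1% of its counts, and 5 annotated pseudogenes of Gapdh together held 0.289% of its counts. The fitted differences were −3.38 (SE 1.59, adjusted p = 0.214, edgeR) for 21 mo against 18 mo and 4.02 (SE 1.62, adjusted p = 0.218, edgeR) with O304. Without 18 mo mouse 3 the first was −1.20, and without 21 mo/O304 mouse 1 the second was 0.12. DESeq2 gave no p for the gene. How reads that fit several places were counted is not given in the sources used here, and the size of its differences rests on single libraries.

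Lactate dehydrogenase links glycolysis to the lactate that the proximal tubule uses for glucose synthesis. Ldhb was at 1235, 1365 and 1213 CPM in 18 mo mice, 1024, 1247 and 897 CPM in 21 mo mice and 1228, 1083 and 1246 CPM in 21 mo/O304 mice, with overlap and −0.27 (SE 0.21, adjusted p = 0.431, edgeR). Ldha, the subunit of glycolytic tissues, was at 761, 890.0 and 801 CPM, 762, 585 and 550.4 CPM and 729, 683 and 809 CPM, again with overlap, and differed by −0.37 (SE 0.20, adjusted p = 0.259, edgeR). Ldhd, the mitochondrial dehydrogenase of D-lactate, on chromosome 8 from 111623785 to 111630374, covered a much wider range. Its level was 1401, 1897 and 1284 CPM in 18 mo mice, 1122, 473 and 192 CPM in 21 mo mice and 1337, 1567 and 1663 CPM in 21 mo/O304 mice. All 21 mo mice lay below both other groups, with a log2 difference of −1.36 (SE 0.53, adjusted p = 0.154, edgeR) against 18 mo, and 21 mo/O304 mice were above 21 mo mice by 1.35 (SE 0.53, adjusted p = 0.212, edgeR). With 21 mo mouse 1 left out these were −2.18 (adjusted p = 0.0086, edgeR) and 2.18 (adjusted p = 0.0107, edgeR), and without mouse 3 they were −0.95 and 0.94. Even mouse 1 lay below every 18 mo and every 21 mo/O304 mouse for this gene.

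Of the 6 gluconeogenesis members, Pck1, Fbp1, G6pc and G6pc3 were lowest of the 9 libraries in 21 mo mouse 3. Fbp1 and G6pc were next lowest in 21 mo mouse 2. Pck1 makes phosphoenolpyruvate from oxaloacetate, and its gene spans chromosome 2 from 173153048 to 173159273. Its transcript was at 978, 1796 and 1429 CPM in 18 mo mice, 1999, 1135 and 251 CPM in 21 mo mice and 2780.3, 2519.5 and 2953 CPM in 21 mo/O304 mice. The 21 mo mice spanned the 18 mo group on both sides, with −0.31 (SE 0.60, adjusted p = 0.764, edgeR), a value that was 0.15 without 21 mo mouse 3. All 3 O304-treated mice had more Pck1 than the 6 other mice. The difference was 1.29 (SE 0.61, adjusted p = 0.26, edgeR) from 21 mo and 0.97 (SE 0.60, adjusted p = 0.65, edgeR) from 18 mo, and without 21 mo mouse 1 the first was 1.98 (adjusted p = 0.0413, edgeR), and without mouse 3 it was 0.82. Fat cells also use Pck1. The 7 adipocyte markers summed to 71.6, 6.08 and 46.2 CPM in 21 mo/O304 mice 1 to 3 and to between 0.123 and 5.15 CPM in the other 6, and 6 of the 7 were at 0 in some library, Adipoq among them. Mouse 2, with the lowest marker sum of the treated mice, had 2519.5 CPM of Pck1, and the part of fat cells in its level was not tested.

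Fbp1, on chromosome 13 from 62864753 to 62888282, removes a phosphate from fructose-1,6-bisphosphate. It was at 958, 1135 and 1111 CPM in 18 mo mice, 933, 382 and 169 CPM in 21 mo mice and 947, 1095 and 1192 CPM in 21 mo/O304 mice. All 21 mo mice were below both other groups, mouse 1 only just, and the differences were −1.11 (SE 0.50, adjusted p = 0.201, edgeR) and 1.12 (SE 0.50, adjusted p = 0.247, edgeR). They were −1.94 (adjusted p = 0.00779, edgeR) and 1.96 (adjusted p = 0.00968, edgeR) without 21 mo mouse 1, and −0.72 and 0.72 without mouse 3. G6pc, the catalytic subunit of glucose-6-phosphatase that releases free glucose, on chromosome 11 from 101367561 to 101377903, was at 339.7, 401 and 325 CPM, 506, 158 and 66.3 CPM and 289, 371 and 745 CPM. Mouse 1 of the 21 mo group exceeded all 18 mo mice, and the difference of −0.55 (SE 0.64, adjusted p = 0.608, edgeR) became −1.65 (adjusted p = 0.0357, edgeR) without it and −0.11 without mouse 3. With O304 it was 0.95 (SE 0.64, adjusted p = 0.397, edgeR), or 2.05 (adjusted p = 0.0212, edgeR) without 21 mo mouse 1 and 0.50 without mouse 3, with 21 mo/O304 mouse 3 the highest of the 9. G6pc3, the widely expressed homologue, was at 59.6, 62.5 and 55.6 CPM in 18 mo mice, 51.6, 50.8 and 41.7 CPM in 21 mo mice and 59.1, 48.0 and 60.7 CPM in 21 mo/O304 mice. It was lower in all 21 mo mice than in all 18 mo mice, with a log2 difference of −0.30 (SE 0.13, adjusted p = 0.186, edgeR).

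Fbp2 and Pck2 had instead their highest mean at 21 mo. Fbp2, the muscle isoenzyme of fructose-1,6-bisphosphatase, lies next to Fbp1 on chromosome 13, from 62836877 to 62858422 on the same strand and 6330 bases away. It was at 20.7, 15.8 and 17.6 CPM in 18 mo mice, 31.0, 33.2 and 26.8 CPM in 21 mo mice and 19.4, 16.6 and 12.8 CPM in 21 mo/O304 mice, so the 21 mo mice stood above both other groups. The differences were 0.75 (SE 0.18, adjusted p = 0.0718, edgeR) for 21 mo against 18 mo and −0.90 (SE 0.18, adjusted p = 0.175, edgeR) with O304, the smallest unadjusted p of any member in each comparison. Leaving out 21 mo mouse 1 gave 0.75 (adjusted p = 0.0306, edgeR) and −0.89 (adjusted p = 0.0206, edgeR). DESeq2 called Fbp2 in both. The 6 skeletal muscle markers summed to at most 1.92 CPM in any library, with Myh4 and Ckm among the 5 at 0 in some library. Pck2, the mitochondrial phosphoenolpyruvate carboxykinase, was at 24.5, 21.0 and 25.2 CPM in 18 mo mice, 19.9, 29.3 and 39.0 CPM in 21 mo mice and 21.0, 19.4 and 21.7 CPM in 21 mo/O304 mice. 21 mo mice 2 and 3 were the highest of the 9 and mouse 1 fell among the others, giving 0.32 (SE 0.22, adjusted p = 0.367, edgeR) and −0.51 (SE 0.22, adjusted p = 0.234, edgeR). Without mouse 1 these were 0.55 (adjusted p = 0.0337, edgeR) and −0.73 (adjusted p = 0.0164, edgeR).

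**Figure D3:**
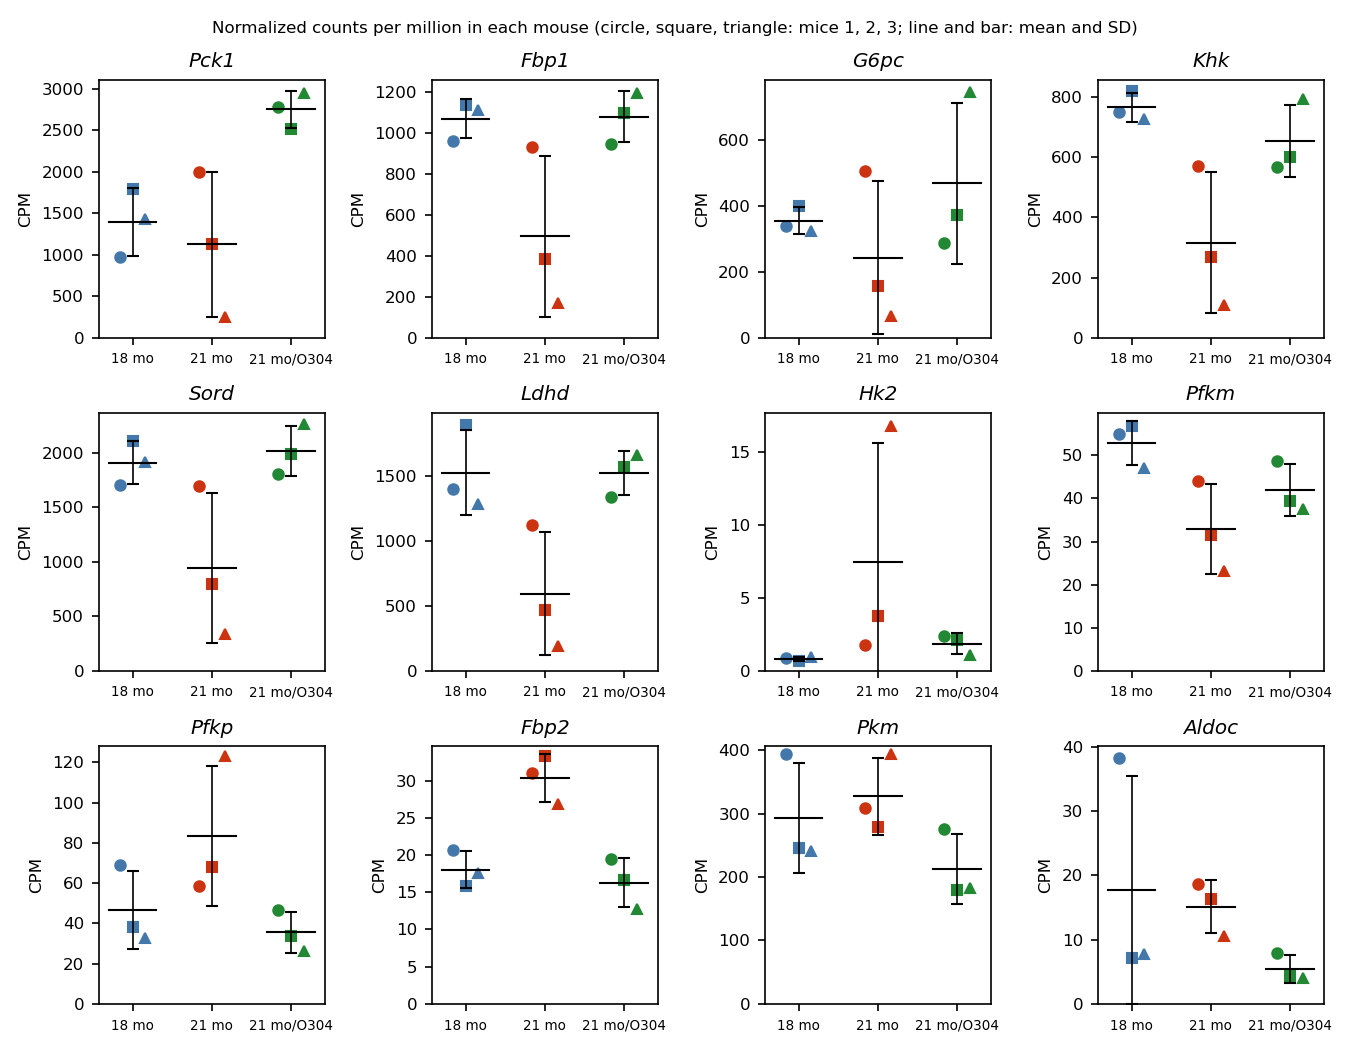
Normalized CPM (axes from 0) of 12 members in each of the 9 mice, with circles, squares and triangles for mice 1, 2 and 3 of a group, a line for the mean and a bar for the SD (n = 3), which is cut at 0 where it would pass below. In 21 mo mice Fbp1, Khk, Sord and Ldhd are highest in mouse 1 (87.3%, 74.5%, 88.6% and 73.5% of the 18 mo mean) and lowest in mouse 3, Pck1 has its 3 highest values in the O304-treated mice, and Fbp2 has its 3 highest values in the 21 mo mice.

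The fructose, galactose and polyol enzymes carry fructose into glycolysis and convert glucose to fructose by way of sorbitol. Khk, on chromosome 5 from 30921431 to 30931248, was at 750.5, 819 and 726 CPM in 18 mo mice, 570.1, 268 and 111 CPM in 21 mo mice and 568, 601 and 792 CPM in 21 mo/O304 mice. All 21 mo mice lay below all 18 mo mice, with a log2 difference of −1.28 (SE 0.48, adjusted p = 0.143, edgeR). The 21 mo/O304 mice were higher than 21 mo mice by 1.05 (SE 0.48, adjusted p = 0.253, edgeR), with 21 mo mouse 1 just above the lowest of them. Without that mouse the 2 differences were −1.998 (adjusted p = 0.0086, edgeR) and 1.78 (adjusted p = 0.0143, edgeR), and without mouse 3 they were −0.88 and 0.65. Sord, on chromosome 2 from 122234749 to 122265340, was at 1707, 2106 and 1911 CPM, 1690.0, 799.6 and 335 CPM and 1805, 1985 and 2263 CPM in 18 mo, 21 mo and 21 mo/O304 mice. The 21 mo mice were below both other groups, with a log2 difference of −1.02 (SE 0.49, adjusted p = 0.222, edgeR) and, with O304 as the higher group, 1.10 (SE 0.49, adjusted p = 0.244, edgeR), with 21 mo mouse 1 lower than 18 mo mouse 1 by little. Without it the values were −1.73 (adjusted p = 0.0134, edgeR) and 1.82 (adjusted p = 0.0143, edgeR), and without mouse 3 −0.63 and 0.70. Galm, which interconverts the anomers of galactose, held 107, 115 and 118 CPM, 138, 93.2 and 52.1 CPM and 153, 131 and 125 CPM. Its treated mice were all above the 18 mo mice, by 0.27 (SE 0.29, adjusted p = 0.815, edgeR), and overlapped the 21 mo mice. Akr1b3, aldose reductase, makes the sorbitol that Sord uses. It was at 53.5, 53.4 and 53.9 CPM in 18 mo mice, 30.0, 64.2 and 139 CPM in 21 mo mice and 48.6, 37.5 and 63.3 CPM in 21 mo/O304 mice. The 18 mo mice were nearly equal and the 21 mo mice lay on both sides of them, so the difference of 0.54 (SE 0.45, adjusted p = 0.462, edgeR) had no direction that held without mouse 3, where it was −0.20.

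Isoenzyme shares were taken by FPKM within each family, and those of Hk1, Pfkm, G6pc and Fbp1 were lowest of the 9 libraries in 21 mo mouse 3. Hk1 made 96.1% to 98.1% of hexokinase in 18 mo mice and 95.5%, 93.5% and 80.5% in 21 mo mice 1 to 3. In 21 mo/O304 mice it made 96.3%, 90.5% and 90.6%. Pfkm was the leading phosphofructokinase subunit in 18 mo mice, at 45.9% to 59.0%. It was at 43.9%, 39.3% and 27.8% in 21 mo mice, below the 18 mo range in all 3, and at 52.5% to 54.1% in 21 mo/O304 mice. Pfkp took 36.8% in 21 mo mouse 3, where it was the largest of the 3 subunits, against 9.45% to 14.4% in 18 mo mice and 9.45% to 12.5% in 21 mo/O304 mice. Within the fructose-1,6-bisphosphatases, Fbp2 was 1.59% to 2.44% of the total in 18 mo mice, 3.71%, 9.15% and 15.5% in 21 mo mice and 1.23% to 2.32% in 21 mo/O304 mice, without overlap between 21 mo and either other group. G6pc was 84.0% to 85.5% of its pair in 18 mo mice, 90.04%, 74.1% and 59.4% in 21 mo mice and 81.8% to 91.9% in 21 mo/O304 mice. Ldhb kept 73.9% to 81.8% of the Ldha and Ldhb total over all 9 libraries, Pkm 77.6% to 91.6% of pyruvate kinase, Aldoa 96.5% to 99.6% of the Aldoa and Aldoc total and Eno1 96.9% to 99.1% of enolase. These shares are descriptions, and no test was run on them.

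**Figure D4:**
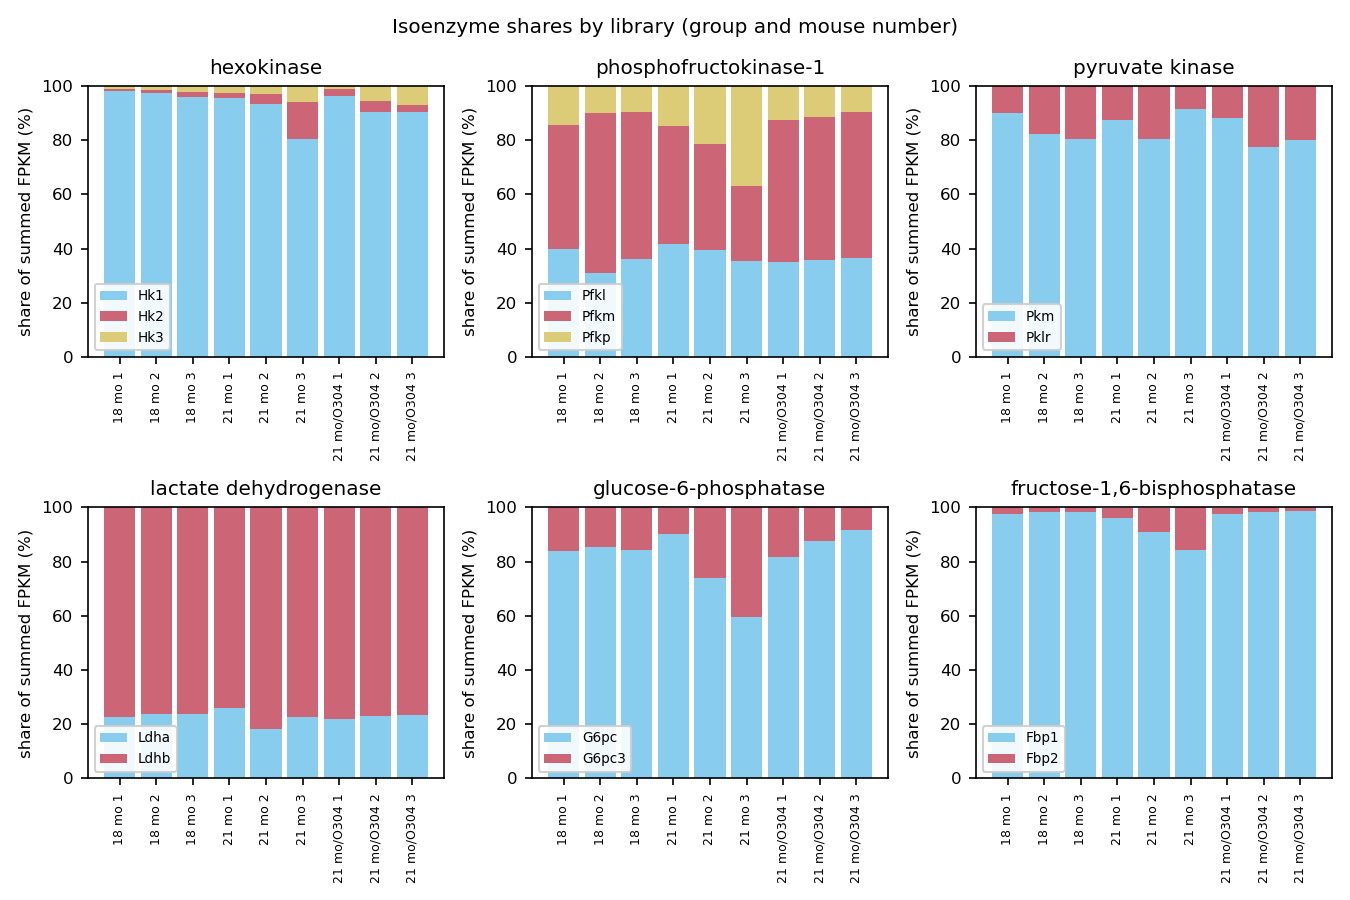
Stacked bars of the percent of summed FPKM that each isoenzyme gave to its family, for 6 families and each of the 9 libraries (group and mouse number on the x axis). In 21 mo mouse 3 Pfkp is at 36.8%, G6pc3 at 40.6% and Fbp2 at 15.5%, each its highest share, while Ldhb lies between 73.9% and 81.8% in every library.

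The summed proximal tubule markers were lowest of the 9 libraries in 21 mo mice 2 and 3. Among them Slc5a12, at 107 and 92.5 CPM, stayed within its 18 mo range of 80.0 to 254 CPM. Some members also had their lowest pair of the 9 libraries in these mice. These were Pfkm, Pfkfb2, Tpi1, Pgk1, Pgam1, Eno1, Ldha, Ldhd, G6pc, Fbp1, Khk, Galm and Sord. The share of all genes with this pattern was not counted. 21 mo mouse 2 was below the 18 mo range for 51.4% of members and 36.1% of all genes tested. For mouse 3 these were 57.1% and 40.5%. An excess of low members was not limited to these mice. In 21 mo mouse 1 the shares were 45.7% and 33.4%, and in 21 mo/O304 mouse 2 they were 48.6% and 32.5%. In 21 mo/O304 mice 1 and 3 they were 28.6% and 30.4%, and 34.3% and 31.3%. The 6 gluconeogenesis members summed to 2381 to 3431 CPM in 18 mo mice, 3540, 1788 and 595 CPM in 21 mo mice and 4070 to 4986 CPM in 21 mo/O304 mice. The 4 fructose, galactose and polyol members summed to 2618 to 3093 CPM, then 2428, 1225 and 637 CPM, then 2575 to 3243 CPM. The 12 proximal tubule markers summed to 24792 to 31409 CPM in 21 mo/O304 mice, and 0 of the 12 passed an adjusted p of 0.05 in edgeR in any comparison. The 7 injured tubule markers, none at 0, summed to 172 to 173 CPM in 18 mo mice, 182, 1316 and 2192 CPM in 21 mo mice and 135 to 191 CPM in 21 mo/O304 mice. Summed levels of the other marker lists ranged over the 9 libraries from 239 to 609 CPM for collecting duct, 199 to 592 CPM for podocytes, 179 to 518 CPM for endothelium, 4.74 to 56.3 CPM for neutrophils, 6.41 to 28.8 CPM for T and B lymphocytes and 4.08 to 882 CPM for erythroid cells. The highest neutrophil and erythroid sums were those of 21 mo mouse 1, where 18 mo mice had 4.74 to 10.5 and 22.7 to 232 CPM. The highest injury and macrophage sums were those of 21 mo mouse 3. This mouse was also the highest of the 9 for Hk2, Hk3, Pfkp, Pfkfb1, Pfkfb3, Pfkfb4, Eno2, Pkm, Pck2 and Akr1b3. The share of all genes highest in this mouse was not counted, but it was above the 18 mo range for 34.3% of members and 41.3% of all genes. The 7 fibroblast markers, none at 0, were at 203 to 303.7 CPM, 162 to 1497 CPM and 125 to 303.8 CPM in 18 mo, 21 mo and 21 mo/O304 mice. How much of any member's difference follows from these cell types was not tested.

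**Figure D5:**
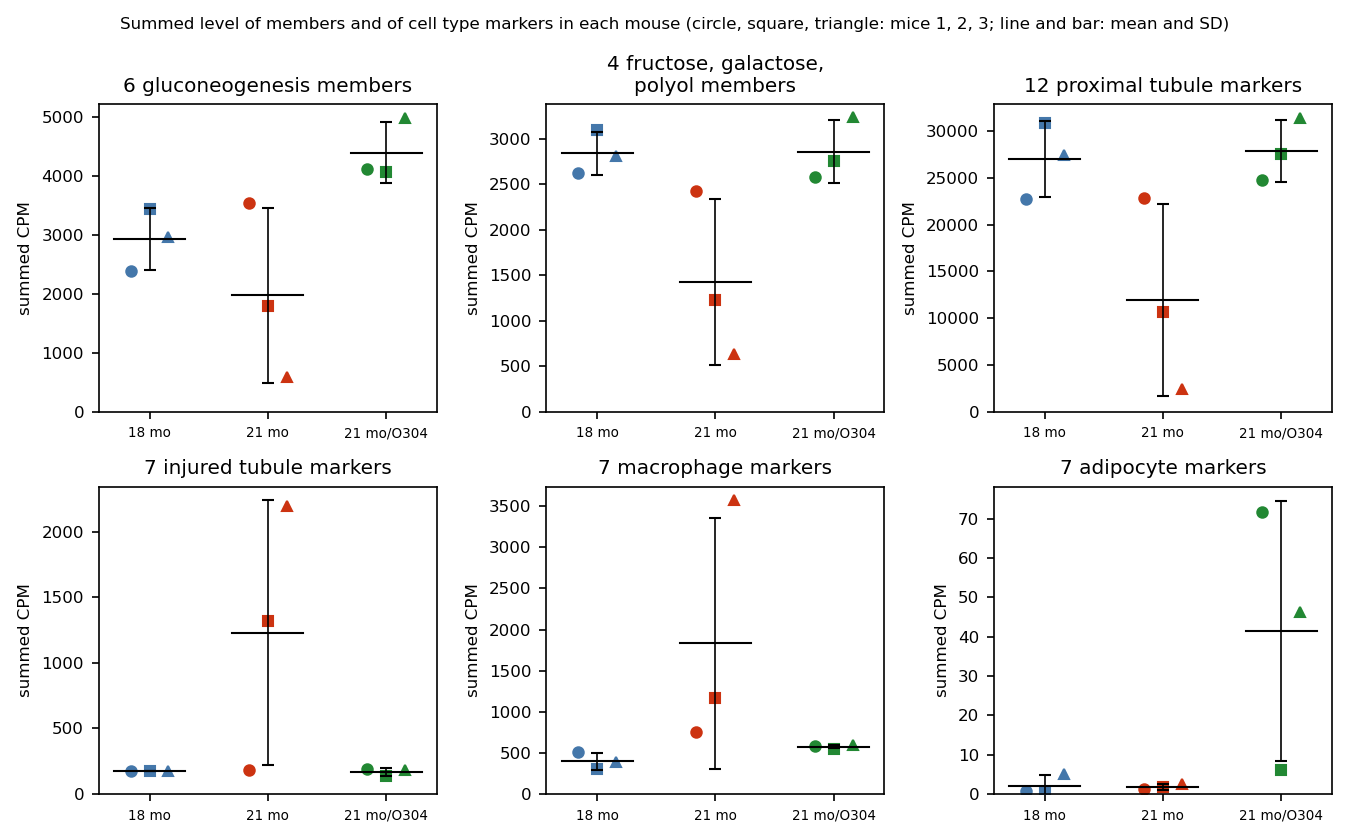
Summed CPM (axes from 0) of the gluconeogenesis members, of the fructose, galactose and polyol members and of 4 lists of cell type markers in each mouse, with circles, squares and triangles for mice 1, 2 and 3, a line for the mean and a bar for the SD (n = 3). In the 21 mo group the member sums and the proximal tubule sum are high in mouse 1 and lowest in mouse 3 (595, 637 and 2451 CPM), while injured tubule and macrophage sums are highest in mouse 3 (2192 and 3575 CPM).

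Genes around the pathway were counted from 6 further lists, and none of their tested genes passed an adjusted p of 0.05 in edgeR in any comparison. For 21 mo against 18 mo at an unadjusted p under 0.05, 1 was higher and 3 lower of 16 other sugar enzymes, 0 and 4 of 12 glucose and fructose transporters, 1 and 1 of 8 lactate and pyruvate carriers, 1 and 1 of 8 pentose phosphate genes, 2 and 2 of 15 glycogen genes, and 4 and 5 of 19 transcription factors and coactivators, where 14% of all genes were higher and 12% lower. With O304 against 21 mo the same counts were 1 and 1, 1 and 1, 0 and 1, 1 and 2, 0 and 1, and 6 and 3, beside 8.27% and 12.4% of all genes. Against 18 mo, O304-treated mice gave 0 and 1, 0 and 0, 0 and 0, 1 and 0, 0 and 1, and 2 and 1, beside 4.33% and 5.33%. The list medians for 21 mo against 18 mo, in the same order, were −0.35, −0.42, −0.23, 0.08, −0.13 and −0.21, where all genes had 0.03. With O304 against 21 mo they were 0.12, 0.27, 0.28, −0.07, 0.07 and 0.37, where all genes had −0.02. Slc5a2, the main glucose reabsorber of the early proximal tubule (SGLT2), was at 244, 264 and 537 CPM in 18 mo mice, 189.5, 123 and 49.5 CPM in 21 mo mice and 182, 267 and 252 CPM in 21 mo/O304 mice, and differed between 21 mo and 18 mo by −1.53 (SE 0.48, adjusted p = 0.1, edgeR). Galk1, which phosphorylates galactose, differed by −0.62 (SE 0.13, adjusted p = 0.064, edgeR) in 21 mo mice and by −0.60 (SE 0.13, adjusted p = 0.323, edgeR) in 21 mo/O304 mice, both lower, against 18 mo and without overlap. Pgam2, the muscle phosphoglycerate mutase, differed by −1.02 (SE 0.28, adjusted p = 0.0849, edgeR) at 21 mo and by 0.89 (SE 0.28, adjusted p = 0.18, edgeR) with O304, without overlap in either comparison. Slc16a3, the lactate exporter of glycolytic cells (MCT4), was at 2.42, 1.85 and 1.81 CPM, 3.68, 2.501 and 6.83 CPM and 1.34, 1.97 and 1.40 CPM, all 21 mo mice lying above both other groups, with a log2 difference of 1.10 (SE 0.40, adjusted p = 0.131, edgeR) for 21 mo against 18 mo and −1.47 (SE 0.40, adjusted p = 0.175, edgeR) with O304. Slc2a1, the basolateral glucose transporter GLUT1, differed by −1.16 (SE 0.42, adjusted p = 0.196, edgeR) with O304, without overlap. Pygb, the brain glycogen phosphorylase, differed by 0.87 (SE 0.28, adjusted p = 0.107, edgeR) and −0.94 (SE 0.28, adjusted p = 0.176, edgeR), and Pygm, the muscle form, by −1.06 (SE 0.26, adjusted p = 0.0738, edgeR) and 0.17 (SE 0.26, adjusted p = 0.714, edgeR). G6pdx, which opens the pentose phosphate pathway, differed by 0.57 (SE 0.19, adjusted p = 0.11, edgeR) and −0.43 (SE 0.19, adjusted p = 0.234, edgeR).

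Among the factors that act on these genes, Myc, which drives glycolytic transcription, was at 5.20, 3.20 and 4.47 CPM in 18 mo mice, 10.03, 25.5 and 23.4 CPM in 21 mo mice and 6.86, 6.62 and 7.70 CPM in 21 mo/O304 mice. Its 21 mo mice were above both other groups, with a log2 difference of 2.19 (SE 0.35, adjusted p = 0.0626, edgeR), and with O304 the difference from 21 mo was −1.48 (SE 0.34, adjusted p = 0.175, edgeR). Esrra, a nuclear receptor of oxidative metabolism, was at 216, 234 and 214 CPM, 123, 91.5 and 70.0 CPM and 144, 136 and 139 CPM. All 21 mo mice lay below all 18 mo mice, with a log2 difference of −1.22 (SE 0.19, adjusted p = 0.0626, edgeR), and the treated mice lay between, at −0.66 (SE 0.19, adjusted p = 0.345, edgeR) against 18 mo. Ppargc1a and Foxo1, coactivator and activator of gluconeogenic genes, gave 0.00 (SE 0.24, adjusted p = 0.994, edgeR) and 0.35 (SE 0.19, adjusted p = 0.305, edgeR) for O304 against 21 mo.

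The last comparison set O304-treated mice against 18 mo mice. Pck1, Galm, Hk2 and Pfkfb4 were higher in every treated mouse than in every 18 mo mouse, and Aldoc had the smallest unadjusted p. Of the 35 members, 11 were higher and 24 lower, and edgeR called 0 (0% of all genes), as it did without 21 mo mouse 1 (0%). At an unadjusted p under 0.05 there was 1 lower member, Aldoc (5.33% of genes), and 0 higher (4.33%). Without 18 mo mouse 1 the count of lower members was 0 and Aldoc was at −0.47. The treated mice lay wholly above the 18 mo mice for 4 members, Hk2, Pfkfb4, Pck1 and Galm (13.2% of genes), and wholly below for 0 (13.3%). DESeq2 called 0 members (0.446% of 28225 genes), and on the 6 libraries alone 1, Pck1 (2.97% of 26669), over all genes with any count. The counts were 0 for limma voom with sample quality weights (2.61%) and 0 for limma-trend (0%). The median log2 fold change was −0.09 over the members and 0.00 over all genes. Fbp1, Sord, Ldhd and Khk, which spread widely at 21 mo, gave 0.01 (SE 0.50, adjusted p = 0.997, edgeR), 0.08 (SE 0.48, adjusted p = 0.976, edgeR), 0.00 (SE 0.52, adjusted p = 0.999, edgeR) and −0.23 (SE 0.47, adjusted p = 0.922, edgeR). Hk2, at 1.16 (SE 0.78, adjusted p = 0.677, edgeR), rests on low counts, and Pkm and Pfkl gave −0.46 (SE 0.26, adjusted p = 0.613, edgeR) and −0.36 (SE 0.21, adjusted p = 0.62, edgeR) with overlap.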

How the data were processed

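Kidney RNA of 9 mice was sequenced, 3 per group as labelled. The authors deposited a table of counts per gene and FPKM. The submitters' processing notes name HISAT2 2.0.5, featureCounts 1.5.0-p3, DESeq2 1.20.0 and the builds GRCm38 and mm10. Strandedness and the handling of multi-mapped reads are not given in the sources used here. A further 10 columns hold the authors' own comparisons (fold changes and p-values) and were not used.

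Counts were filtered with edgeR 4.0.16 in R 4.3.3 (minimum count 10, total 15), TMM-normalized and fitted with the quasi-likelihood test over all 9 libraries (6 residual degrees of freedom). The log2 CPM values of the heat map use a prior count of 2, and log2 fold changes are those of the edgeR fit at its default. The edgeR test gives no SE, so each SE was worked back as the absolute log2 fold change divided by the square root of that test's F statistic. P-values were adjusted by Benjamini-Hochberg over all genes tested, at a threshold of 0.05. DESeq2 1.42.0 and limma 3.58.1 were alternatives, the latter with voom or on log2(FPKM + 1) for genes at 0.5 FPKM or more. Scripts were tested on simulated data with the same spread in every group. That does not show how the tests behave with a 21 mo group as uneven as this one. The labels call the samples separate replicates of a group, so edgeR's test weighs group differences against the spread between these samples. That spread is pooled over all 9 libraries, although the 21 mo group was more uneven than the others.

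The members, their roles, the 6 related gene lists and the marker lists were chosen with earlier results of these data known. Per-mouse values are given for members past the threshold, for the 8 with the smallest p per comparison and for the most abundant of each role. Tpi1, Ldha, G6pc, Galm and Akr1b3, and the factors Ppargc1a and Foxo1, fall outside this rule and were added after their values were seen. Related genes are among the 2 with the smallest p of each list. One related gene that the rule selects is not reported here.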

Additional observations from a re-analysis of the deposited data

How the results depend on the processing

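With all libraries, edgeR called 0 members in each comparison, as it did with RLE normalization, with only genes at 10 or more counts in every library (33 members) and with only the 6 libraries compared. For 21 mo against 18 mo, DESeq2 called 5, DESeq2 on 6 libraries 2, no filter on low counts 1 (Hk2) and limma voom with sample quality weights 16. Without the filter edgeR called 576 of 28225 genes, against 3 of 15902 with it, and the larger base includes genes that the filter removed. The shares for DESeq2 and voom are given with each comparison above. For 21 mo/O304 against 21 mo the counts were 2 with DESeq2, 3 with DESeq2 on 6 libraries and 19 with voom. For 21 mo/O304 against 18 mo, DESeq2 on 6 libraries called 1. The DESeq2 fits on 6 libraries were added after the data were seen. Leaving out 1 library at a time gave 0 to 12 calls, 0 to 14 and 0 to 0 in the 3 comparisons, the highest counts coming without 21 mo mouse 1 and every other omission giving 0. The members' median then ran from −0.23 to −0.08, from −0.052 (without 21 mo/O304 mouse 1) to 0.11 and from −0.12 to −0.01. Without 21 mo mouse 3, 8 members changed sign for 21 mo against 18 mo, Pck1 and Akr1b3 among them, and 5 for 21 mo/O304 against 21 mo, Akr1b3 among them.

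Among the members named by the rule fixed for each comparison, signs turned for Aldoa, Pfkfb4, Gpi1 and Ldhb, all at small log2 differences. For 21 mo against 18 mo, Aldoa ran from −2.35e-05 without 21 mo mouse 1 to 0.049 over the libraries left out, and Pfkfb4 from −0.050 without 21 mo mouse 3 to 0.47. With O304 against 21 mo, voom gave 0.026 for Gpi1 and −0.070 for Ldhb. Pfkfb4 ran from −0.17 without 21 mo mouse 1 to 0.33 and was at −0.090 without 21 mo/O304 mouse 1. Gpi1 ran from −0.095 to 0.013, and Aldoa reached 0.015, both without 21 mo/O304 mouse 2. Isoenzyme shares taken from CPM, which ignores gene length, moved from 47.8% to 27.1% for Pfkm, from 41.7% to 32.9% for Pfkfb4, from 98.3% to 99.3% for Eno1 and from 77.2% to 61.6% for Ldhb, as means over the 9 libraries. The cause of the other changes was not tested.

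The labels do not say that the replicate numbers pair the mice. Same-numbered samples deviated together with correlations from −0.130 to 0.175, and the best match had the same number in some cases and another in others. With 3 libraries a group these values cannot settle whether mice were paired. A fit with the replicate number as a block called 0 members in each comparison. Depth limits Hk3 and Eno2, which had under 10 counts in some library, and the uneven 21 mo group limits every comparison that uses it.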
